A study of Mus musculus with 20 samples.

Results

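A set of 10 genes of thymocyte development, centred on the double-positive stage but not all particular to it, was followed across 5 groups of mouse T cells. These groups were with and without the Id proteins Id2 and Id3. The genes were the recombination genes Rag1, Rag2 and Dntt, the pre-TCR α gene Ptcra, the coreceptor genes Cd4, Cd8a and Cd8b1, the antigen-presenting gene Cd1d1, and Aqp11 and Endou. They were chosen by name, with earlier results of these data known. Each was matched to 1 row by its mouse Ensembl identifier, and all 10 were found among the 39179 genes measured. Of these genes 8 had a mean of at least 10 normalized counts in at least 1 group, as did 15536 genes in all, whereas Rag2 and Ptcra stayed under 10 in every group.

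The 20 libraries came from sorted T cells of mice on a C57BL/6 background. In the first group were 3 libraries labelled Id3-/-, and in the second were 3 Id2-/-Id3-/- libraries, both from CD4 single-positive (CD4SP) thymocytes sorted as CD4+TCRb+CD8-. In the study the Id2 and Id3 alleles of the second group were floxed and deleted by Cre driven from the IL7R locus, which acts from lymphoid progenitors onward. The third group held 3 libraries of wild-type follicular helper T (TFH) cells, sorted from spleen as CD44 high and CXCR5+ CD4 T cells. The fourth held 6 Id2-/-Id3-/- lymphomas, whose individual Cre lines and ages the sources used here do not give. The study describes its lymphomas in mice months older than those that gave CD4SP cells, with Cre driven by IL7R, CD4 or dLck. The 6 lymphomas were sorted as CD4+ cells in 4 cases and as CD8+ cells in 2, and 4 came from lymph node, 1 from spleen and 1 from thymus. The last group held 5 control CD4SP libraries labelled wild type, for which the study names littermate and Id3+/- mice. Mice that gave CD4SP cells were 8 weeks old, and those that gave TFH cells had been immunized with sheep red blood cells. All values are the authors' mean of DESeq-normalized counts for a group. Values of single libraries were not analysed here, so no mean has an error, no difference has a test, and whether the libraries of 2 groups overlap is unknown.

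At the double-positive stage thymocytes carry CD4 and CD8 together on the surface and rearrange the TCR α locus. The RAG1 and RAG2 proteins cut the DNA at that step, terminal transferase (encoded by Dntt) adds bases at the junctions, and CD1d on the same cells presents lipids that select NKT cells. Cells that pass selection switch the recombinase off and keep a single coreceptor. E proteins, which bind E-box sequences of the form CANNTG, activate many genes of this stage, and Id proteins bind E proteins and hold them off DNA.

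Because E boxes are the sites that E proteins read, 4 of the promoters are shown, with each CANNTG in capitals. The 4 genes were picked because their means took 4 different courses over the groups. The windows run from 250 bases before to 50 bases after the RefSeq start of the gene, 5′ to 3′ on the gene's strand, and come from RefSeq on GRCm38.p6. For Dntt and Cd8a that start is the same as the start of the GENCODE gene positions given below, for Rag1 it lies 31 bases upstream of it and for Aqp11 42 bases downstream, and distances here count from the RefSeq start. Rag1 is at chr2:101649483-101649782 on the minus strand, Dntt at chr19:41029025-41029324 on the plus strand, Cd8a at chr6:71373177-71373476 on the plus strand and Aqp11 at chr7:97738198-97738497 on the minus strand.
Rag1: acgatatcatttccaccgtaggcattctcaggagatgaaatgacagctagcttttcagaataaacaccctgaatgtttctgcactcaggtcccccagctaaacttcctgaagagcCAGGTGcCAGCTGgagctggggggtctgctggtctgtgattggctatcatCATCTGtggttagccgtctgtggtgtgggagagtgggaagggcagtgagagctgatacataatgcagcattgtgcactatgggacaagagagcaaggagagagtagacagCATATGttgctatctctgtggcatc
Dntt: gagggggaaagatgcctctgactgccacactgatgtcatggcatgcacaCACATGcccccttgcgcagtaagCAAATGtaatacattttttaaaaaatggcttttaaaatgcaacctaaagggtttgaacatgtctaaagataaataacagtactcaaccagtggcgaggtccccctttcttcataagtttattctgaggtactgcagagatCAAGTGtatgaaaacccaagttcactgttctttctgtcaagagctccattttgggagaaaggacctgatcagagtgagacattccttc
Cd8a: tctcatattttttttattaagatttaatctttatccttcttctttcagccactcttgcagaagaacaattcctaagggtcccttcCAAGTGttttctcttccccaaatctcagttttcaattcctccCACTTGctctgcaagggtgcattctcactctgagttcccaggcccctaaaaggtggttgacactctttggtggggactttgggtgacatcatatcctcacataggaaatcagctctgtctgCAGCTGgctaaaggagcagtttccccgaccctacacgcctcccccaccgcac
Aqp11: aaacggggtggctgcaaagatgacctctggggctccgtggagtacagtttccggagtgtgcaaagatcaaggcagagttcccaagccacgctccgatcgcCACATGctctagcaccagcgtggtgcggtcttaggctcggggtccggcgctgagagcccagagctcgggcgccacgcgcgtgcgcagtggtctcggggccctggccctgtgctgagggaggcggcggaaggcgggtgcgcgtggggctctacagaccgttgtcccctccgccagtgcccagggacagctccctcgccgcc

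CANNTG, a palindrome in its fixed letters and so the same on both strands, occurred 4 times in the Rag1 window, 3 times in the Dntt and Cd8a windows and once in that of Aqp11. Among 32851 mouse promoter windows of this length 72.3% held the motif, with a mean of 1.39 matches. The form CAGCTG, held by 16.3% of windows, was found in the Rag1 window with its first base 128 bases before the start and in the Cd8a window 2 bases before it. CACCTG or its reverse complement CAGGTG, held by 20.2% of windows, was in the Rag1 window 135 bases before the start, next to its CAGCTG. Windows were also found for Rag2, with 2 matches of CANNTG, and Ptcra, with 3 matches that were all CAGCTG, so that 6 of the 10 genes had one. Cd4, Cd8b1, Cd1d1 and Endou had none. A match is a run of letters and was not tied here to binding.

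Before the 10 genes are described, several properties of the groups need to be given. Id2 averaged 6.82 in Id2-/-Id3-/- CD4SP cells and 30.5 in the lymphomas, against 2293.3 in control CD4SP cells, and Id3 averaged 879.7 in the same CD4SP cells and 856.8 in the lymphomas against 1990.5 in control. In the libraries labelled Id3-/- the mean of Id3 was 2649.7, higher than in control cells, which goes against the label, so this group is named by its label throughout. Counts over a whole gene need not drop where only some exons are removed. Summed over 12 B cell genes the means were 4643 in the libraries labelled Id3-/-, 7791 in Id2-/-Id3-/- CD4SP cells, 14600 in TFH cells, 13240 in the lymphomas and 1328 in control cells, with Ighm the largest part in each. Without Ighm they were 832.1 in the libraries labelled Id3-/-, 383.3 in Id2-/-Id3-/- CD4SP cells, 3694 in TFH cells, 2641 in the lymphomas and 145.6 in control cells. Sums over 12 dendritic and myeloid genes ran between 1558 and 2515. Those over 8 NK cell genes ran from 331.1 in Id2-/-Id3-/- CD4SP cells to 6161 in the libraries labelled Id3-/-, where Eomes alone made up 4727. Those over 5 γδ T cell genes ran from 94.5 in TFH cells to 3636 in Id2-/-Id3-/- CD4SP cells. Thymic epithelial genes, 8 in all, summed to 4295 in the lymphomas and to between 644.8 and 1159 in the other groups, but Epcam alone made up 3797 of the lymphoma sum. Without it the other 7 summed to 497.6 in the lymphomas, the lowest of the groups. CD4 T cell genes, also 8, summed to 37680 in the lymphomas and to between 51320 and 57690 elsewhere. Xist, chosen after its values were seen, averaged 19.7 in Id2-/-Id3-/- CD4SP cells, 5060.0 in the libraries labelled Id3-/- and between 9909 and 10477 in the other groups. The labels give no sex of the mice. The part of these differences in what follows was not tested. In such bulk RNA, fewer cells of a type and less RNA per cell cannot be told apart.

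The 8 genes past the filter varied more between the groups than the median gene did. The genes were chosen with earlier results of these data known, so their comparison with all genes is not independent of that choice. Highest and lowest mean differed by over 2-fold in 8 of 8, against 57.2% of the 15536 genes, by over 4-fold in 7 of 8, against 29.0%, and by over 10-fold in 5 of 8, against 13.4%. The median of the highest over the lowest mean was 27.1 for the 8 genes and 2.25 for all genes. These and all ratios below were taken after adding 1 normalized count to both means. The highest mean lay in the lymphomas for Dntt, Cd8a and Endou, in control cells for Rag1, Cd8b1 and Cd1d1, in TFH cells for Cd4 and in Id2-/-Id3-/- CD4SP cells for Aqp11. None of the 8 was highest or lowest in the libraries labelled Id3-/-, where 10.0% of all genes past the filter were highest and 11.9% lowest. Of all these genes 30.4% were highest in the lymphomas, 17.5% in control cells, 22.9% in TFH cells and 19.2% in Id2-/-Id3-/- CD4SP cells.

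Counted over the comparisons, the 8 genes went in both directions in 3 of the 5. Of the 8, 1 was higher and none lower by over 2-fold in the libraries labelled Id3-/- against control, where 5.57% of all genes were higher and 4.43% lower. In Id2-/-Id3-/- CD4SP cells 2 were higher and 4 lower than in control cells, against backgrounds of 14.1% and 10.1%. In TFH cells none was higher and 5 were lower, against 11.8% and 9.8%. The lymphomas had 3 higher and 3 lower than control, against 18.2% and 17.2%. Compared with Id2-/-Id3-/- CD4SP cells the lymphomas had 4 higher (Dntt, Cd8a, Cd8b1 and Endou) and 1 lower (Rag1), against 11.1% and 14.4%. Cd8b1 was just past the threshold there, and with the means rescaled to equal sums 3 of the 8 were higher. The median log2 ratio of the 8 was -0.44 in the libraries labelled Id3-/-, -0.88 in Id2-/-Id3-/- CD4SP cells, -1.99 in TFH cells and 0.10 in the lymphomas, while the median over all genes lay between -0.02 and 0.02 in these comparisons. Of the 5 comparisons 4 share the control mean, so their ratios are not independent. The gene lists below are to be read against the same background shares, and no list was tested.

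**Figure D1:**
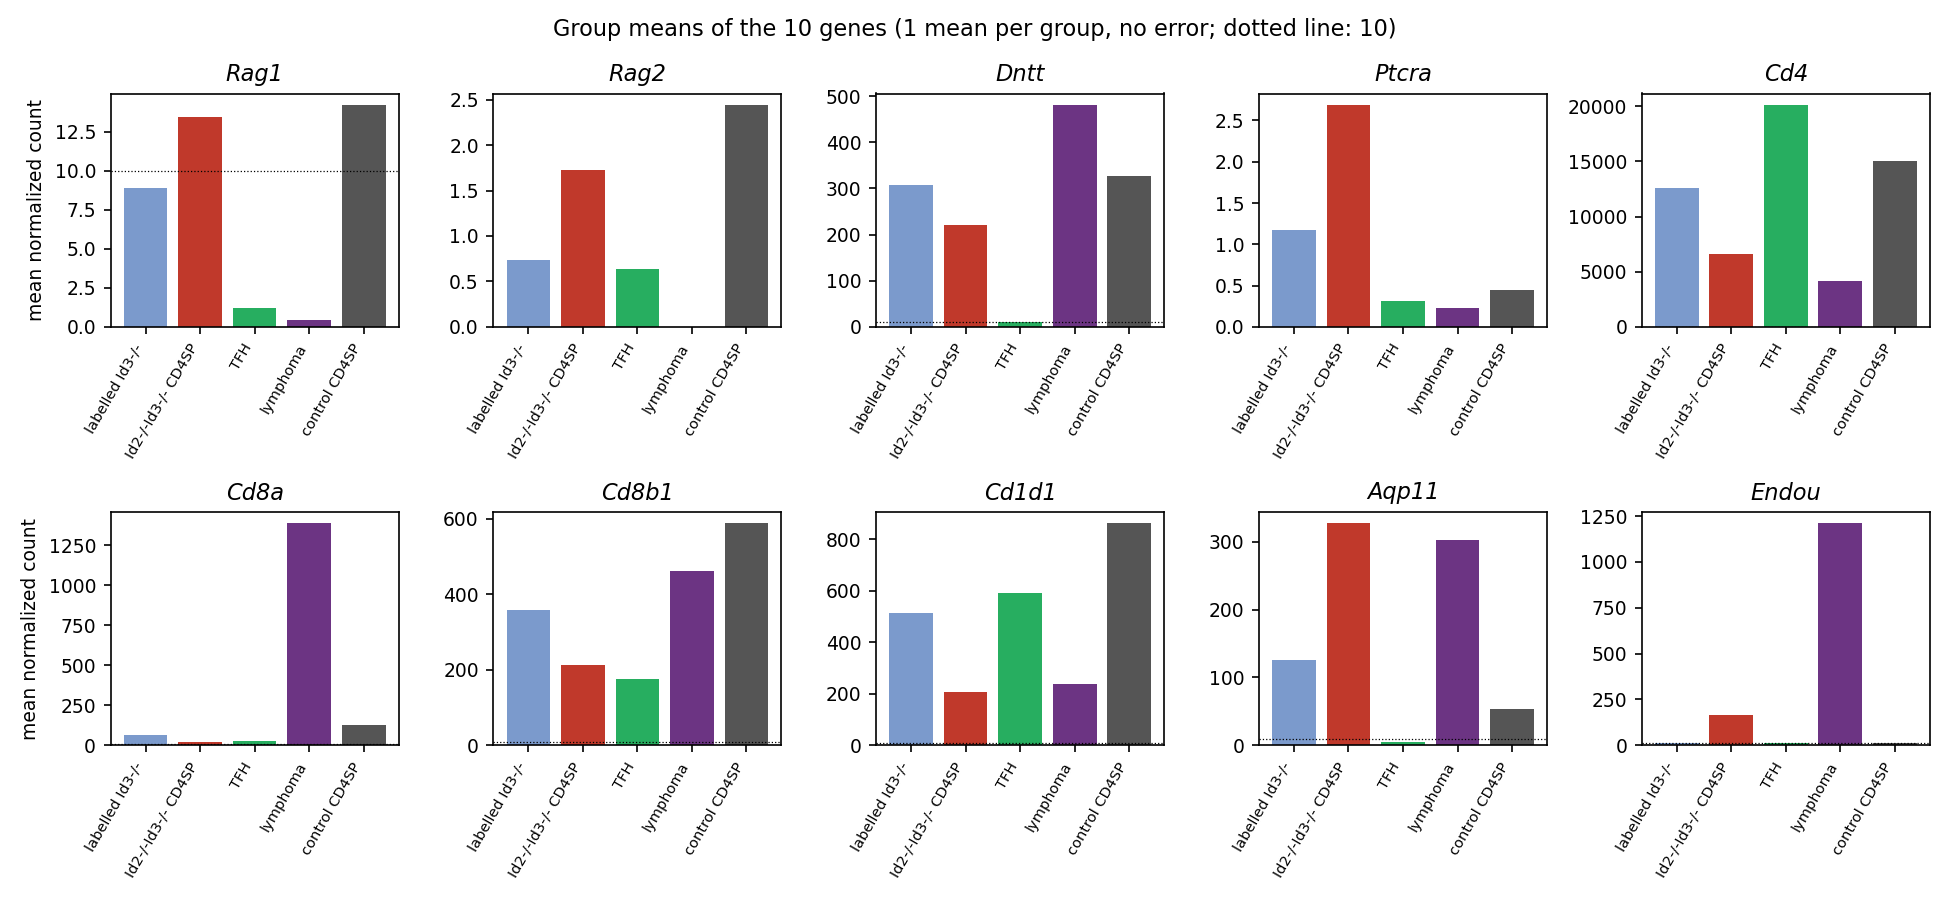
Group means of the 10 genes in normalized counts, 1 bar per group and 1 panel per gene, each with its own vertical axis starting at 0. The dotted line marks 10 normalized counts, bars carry no error because a group has 1 mean, and the lymphoma bars stand out in the Cd8a (1388.3) and Endou (1212.1) panels.

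The recombinase genes were close to the limit of what was measured in every group. Rag1, at chr2:101638282-101649501 on the minus strand of mm10, averaged 8.88 normalized counts in the libraries labelled Id3-/-, 13.4 in Id2-/-Id3-/- CD4SP cells, 1.23 in TFH cells, 0.423 in the lymphomas and 14.2 in control CD4SP cells. The 3 thymic CD4SP groups were within 2-fold of each other, and TFH cells and lymphomas were both below them. On the log2 scale Rag1 differed from control by -2.77 in TFH cells and by -3.42 in the lymphomas, where it was 10.7-fold lower, and by -0.08 in Id2-/-Id3-/- CD4SP cells. At such low means the size of these ratios depends on the count added. With 10 added they were -1.11 in TFH cells and -1.22 in the lymphomas. Per kilobase of exon its mean was 2.16 in control cells, at the 11.1 percentile of genes past the filter, so even the highest level was low.

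Rag2, which encodes the partner of RAG1 in the recombinase, lies 5.8 kb from Rag1 at chr2:101624718-101632529 on the opposite strand. Its means were 0.738 in the libraries labelled Id3-/-, 1.72 in Id2-/-Id3-/- CD4SP cells and 0.633 in TFH cells, it was listed at 0 in the lymphomas, and its mean was 2.45 in control cells. With every mean under 10 they are too low to order the groups, and no fold is given. A longer transcript unit, B230118H07Rik, spans both genes and was looked at for that reason after its values were seen. Its exons shared 80 bases (1.21%) with those of Rag1 on the same strand and 208 bases (6.07%) with those of Rag2 on the other. It averaged 2.49 in Id2-/-Id3-/- CD4SP cells against 13.2 in control cells, a difference that Rag1 did not show.

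Dntt, the terminal transferase gene at chr19:41029275-41059525, stood above Rag1 per kilobase of exon in all 5 groups. Its means were 306.5 in the libraries labelled Id3-/-, 219.8 in Id2-/-Id3-/- CD4SP cells, 10.1 in TFH cells, 481.6 in the lymphomas and 326.0 in control cells. TFH cells were the exception, with a log2 ratio to control of -4.88 (29.5-fold lower) that only 0.2% of genes lay below. With 10 counts added this ratio was -4.06. The lymphomas were 1.48 times control, within 2-fold, and 2.19 times the Id2-/-Id3-/- CD4SP cells. Per kilobase of exon Dntt averaged 210 in the lymphomas, the 75.9 percentile, where the mean of Rag1 per kilobase was 0.0641, the 0.713 percentile. In control cells the same quantities were 142 for Dntt and 2.16 for Rag1.

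Genes that join the cut ends formed a list of 14. None was past 2-fold in the libraries labelled Id3-/-, and 1 was higher in Id2-/-Id3-/- CD4SP cells, 1 in TFH cells and 3 in the lymphomas, each against control, with none lower. Over all genes the shares higher were 5.57%, 14.1%, 11.8% and 18.2% in these groups in turn, and the shares lower 4.43%, 10.1%, 9.8% and 17.2%. Lig4, the ligase of end joining, averaged 552.2 in Id2-/-Id3-/- CD4SP cells and 651.2 in the lymphomas against 247.9 in control cells. Xrcc4, which binds that ligase, had the lowest log2 ratio in Id2-/-Id3-/- CD4SP cells at -0.58, still within 2-fold. Dclre1c, the nuclease Artemis that opens the hairpin ends, was the 1 gene higher in TFH cells, at 602.0 against 283.5 in control cells.

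Transcription factors known to act on the Rag genes were read next. In the libraries labelled Id3-/- 1 of 12 was higher than in control cells, Myb at 1614 against 694.2, and 1 was lower, Tcf4 at 122.0 against 252.0, beside background shares of 5.57% and 4.43%. Of these 12, 5 were lower and 1 was higher in both Id2-/-Id3-/- CD4SP cells and lymphomas against control, with list medians of -0.85 and -0.74, beside 10.1% of all genes lower and 14.1% higher in those CD4SP cells and 17.2% lower and 18.2% higher in the lymphomas. Myb, a factor of immature and cycling thymocytes, averaged 6351 in Id2-/-Id3-/- CD4SP cells and 6336 in the lymphomas against 694.2 in control cells. Foxo1, an activator of the Rag genes in lymphocytes, averaged 843.4 in Id2-/-Id3-/- CD4SP cells and 912.6 in the lymphomas against 4103.5 in control cells. Satb1, a chromatin organizer of thymocytes that also acts on the coreceptor loci, was the 1 gene of the list past 2-fold in TFH cells, with 1686 against 28784 in control cells. The E protein genes on the list differed among themselves, with Tcf4 at a log2 ratio to control of -2.53 in Id2-/-Id3-/- CD4SP cells while Tcf3 and Tcf12 were within 2-fold. Between lymphomas and Id2-/-Id3-/- CD4SP cells none of the 12 was past 2-fold.

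Ptcra, which encodes the surrogate α chain that pairs with TCRβ before the double-positive stage, was near 0 throughout. Its means were 1.17 in the libraries labelled Id3-/-, 2.69 in Id2-/-Id3-/- CD4SP cells, 0.317 in TFH cells, 0.226 in the lymphomas and 0.449 in control cells. They are too low to order the groups. The TCR and CD3 genes that act beside it, a list of 14 with their proximal kinases and Notch receptors, stayed mostly within 2-fold. Against control 2 were lower and none higher in Id2-/-Id3-/- CD4SP cells and likewise in the lymphomas. Of all genes 10.1% and 17.2% were lower in these groups in turn, and 14.1% and 18.2% higher. Trbc1, one of the paired constant segments of the TCR β locus, averaged 1502 in the lymphomas against 7492 in control cells, whereas Trbc2 averaged 19841 against 18317. In the other groups Trbc1 averaged 7121 in the libraries labelled Id3-/-, 5422 in Id2-/-Id3-/- CD4SP cells and 7046 in TFH cells. Reads of such similar segments could be split between them by the counting, in any group. The study also reports that most of the lymphomas had a limited TCR repertoire. The part of either in the Trbc1 mean was not tested.

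Per kilobase of exon Cd4 had the highest level of the 8 genes past the filter in every group. It lies at chr6:124864692-124888221 on the minus strand and encodes the coreceptor for MHC class II. Its means were 12552 in the libraries labelled Id3-/-, 6566 in Id2-/-Id3-/- CD4SP cells, 20145 in TFH cells, 4110 in the lymphomas and 15039 in control cells. All of these groups except 2 of the 6 lymphomas had been sorted as CD4+. Id2-/-Id3-/- CD4SP cells were thus 2.29-fold and the lymphomas 3.66-fold below control cells, and TFH cells were 1.34 times control. Even the lowest mean, that of the lymphomas, was at the 95.1 percentile of genes per kilobase of exon.

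Lag3, a CD4 paralogue that binds MHC class II and inhibits T cells, lies 16.1 kb from Cd4 and moved differently. It averaged 300.9 in the libraries labelled Id3-/-, 207.3 in Id2-/-Id3-/- CD4SP cells, 1761 in TFH cells, 911.7 in the lymphomas and 38.0 in control cells. Every group was past 2-fold above control, in TFH cells by 45.2 times. The ratio of Cd4 to Lag3 was therefore 31.7 in Id2-/-Id3-/- CD4SP cells and 4.51 in the lymphomas against 396 in control cells.

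The CD8 genes encode the α and β chains of the coreceptor for MHC class I and stand 35.9 kb apart on chromosome 6, Cd8b1 at chr6:71322788-71337494 and Cd8a at chr6:71373427-71379173. Cd8a averaged 66.6 normalized counts in the libraries labelled Id3-/-, 19.2 in Id2-/-Id3-/- CD4SP cells, 26.1 in TFH cells, 1388.3 in the lymphomas and 127.7 in control cells. Cd8b1 averaged 358.2 in the libraries labelled Id3-/-, 212.2 in Id2-/-Id3-/- CD4SP cells, 176.0 in TFH cells, 460.5 in the lymphomas and 587.9 in control cells. Both genes were lower in Id2-/-Id3-/- CD4SP cells, with log2 ratios to control of -2.67 for Cd8a and -1.47 for Cd8b1. TFH cells were alike in this, at -2.25 for Cd8a and -1.73 for Cd8b1. In the libraries labelled Id3-/- both genes lay within 2-fold, at -0.93 and -0.71.

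In the lymphomas the 2 chains parted. Cd8a was 10.8 times control and 68.9 times Id2-/-Id3-/- CD4SP cells, at the 99.9 percentile of all genes in the second of these ratios, whereas Cd8b1 was 0.784 of control and 2.16 times Id2-/-Id3-/- CD4SP cells. The ratio of Cd8a to Cd8b1 was 0.186 in the libraries labelled Id3-/-, 0.0904 in Id2-/-Id3-/- CD4SP cells, 0.148 in TFH cells, 3.01 in the lymphomas and 0.217 in control cells. Per kilobase of exon the same ratio of levels was 1.23 in the lymphomas and between 0.0368 and 0.0886 in the other groups. The lymphoma mean joins 2 libraries sorted as CD8+ with 4 sorted as CD4+, and their parts in it cannot be told apart here. Cd4 over Cd8a was 342 in Id2-/-Id3-/- CD4SP cells and 2.96 in the lymphomas, against 118 in control cells.

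**Figure D2:**
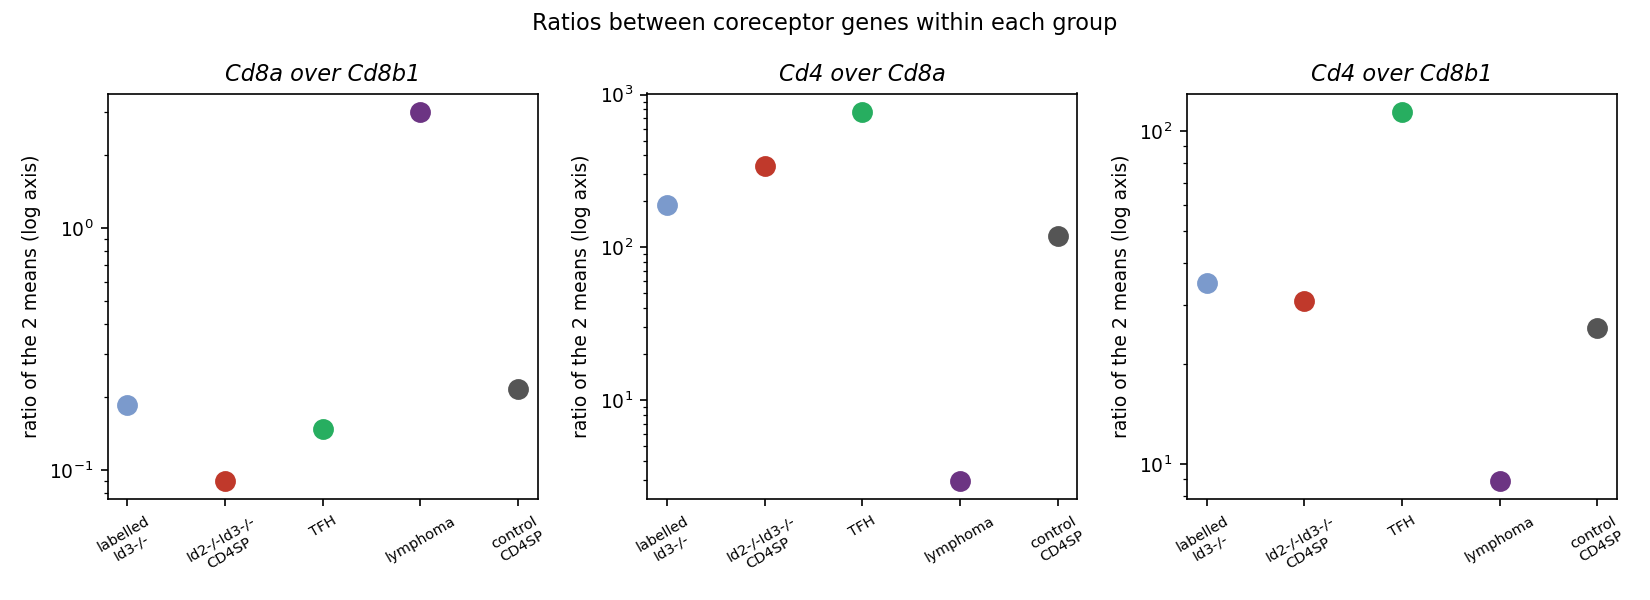
Ratios of the group means of Cd8a over Cd8b1, Cd4 over Cd8a and Cd4 over Cd8b1, 1 point per group on log axes. The lymphomas are alone above 1 for Cd8a over Cd8b1 (3.01) and lowest for Cd4 over Cd8a (2.96) and for Cd4 over Cd8b1 (8.92).

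Among 15 factors known to regulate the coreceptor loci, none was past 2-fold in the libraries labelled Id3-/-. In each of Id2-/-Id3-/- CD4SP cells, TFH cells and lymphomas 4 were lower and none higher, against control. Of all genes 10.1%, 9.8% and 17.2% were lower in these groups in turn, and 14.1%, 11.8% and 18.2% higher. Runx3, which silences Cd4 and activates Cd8 in the CD8 lineage, averaged 118.4 in Id2-/-Id3-/- CD4SP cells and 398.8 in the lymphomas against 1154 in control cells. Its mean in the libraries labelled Id3-/- was 2261, a log2 ratio of 0.97. Zbtb7b, which encodes ThPOK, the factor that commits cells to the CD4 lineage and keeps CD8 genes off, averaged 3100 in Id2-/-Id3-/- CD4SP cells and 1258 in the lymphomas against 6635 in control cells. In the comparison of lymphomas with Id2-/-Id3-/- CD4SP cells these were the 2 genes of the list past 2-fold, Runx3 higher at a log2 ratio of 1.74 and Zbtb7b lower at -1.30. Of all genes 11.1% were higher and 14.4% lower there. The lymphoma means join 2 libraries sorted as CD8+ with 4 sorted as CD4+, whereas the CD4SP cells were sorted as CD8-. The part of the sort in the Runx3 and Zbtb7b means was not tested.

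Cd1d1, at chr3:86995834-86999441 on the minus strand, was lower than in control cells in both Id2-/-Id3-/- groups. It averaged 515.4 in the libraries labelled Id3-/-, 206.3 in Id2-/-Id3-/- CD4SP cells, 592.9 in TFH cells, 236.9 in the lymphomas and 862.5 in control cells. Against control the log2 ratio was -2.06 in Id2-/-Id3-/- CD4SP cells and -1.86 in the lymphomas, and these groups differed from each other by 1.15 times. TFH cells and the libraries labelled Id3-/- were within 2-fold of control, at -0.54 and -0.74. B cells and dendritic cells carry CD1d as well, and the marker sums of both types were highest in TFH cells, though without Cd74 the dendritic and myeloid sum was highest in Id2-/-Id3-/- CD4SP cells (1759). Their part in the level of Cd1d1 was not tested. Its neighbour and paralogue Cd1d2, 6.1 kb away, had low means, 21.4 in the libraries labelled Id3-/-, 32.5 in Id2-/-Id3-/- CD4SP cells, 6.25 in TFH cells, 10.9 in the lymphomas and 39.0 in control cells. The ratio of Cd1d1 to Cd1d2 was 6.35 in Id2-/-Id3-/- CD4SP cells and 94.9 in TFH cells against 22.1 in control cells, but near-identical stretches of the paralogues may share reads.

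Of other genes of lipid presentation, 12 with Cd1d2, none was past 2-fold in the libraries labelled Id3-/-. In Id2-/-Id3-/- CD4SP cells 3 were lower and none higher than in control cells, beside 10.1% and 14.1% of all genes. In TFH cells 2 were higher and 2 lower, beside 11.8% and 9.8%. In the lymphomas 2 were higher and 3 lower, about the share seen over all genes there (18.2% and 17.2%). B2m, the light chain that CD1d needs, averaged 37633 in Id2-/-Id3-/- CD4SP cells and 18858 in the lymphomas against 24555 in control cells, within 2-fold in both. Ctsl, the lysosomal protease cathepsin L, averaged 96.1 in Id2-/-Id3-/- CD4SP cells and 11.0 in the lymphomas against 121.0 in control cells. Gm2a, the GM2 activator that loads lipids, was lower in Id2-/-Id3-/- CD4SP cells at a log2 ratio of -1.37.

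Aqp11 and Endou were higher than in control cells in both Id2-/-Id3-/- groups, and they were the 2 genes of the 8 of which this held. Aqp11 encodes an intracellular water channel and lies at chr7:97724006-97738289 on the minus strand. It averaged 125.5 in the libraries labelled Id3-/-, 327.4 in Id2-/-Id3-/- CD4SP cells, 4.70 in TFH cells, 302.5 in the lymphomas and 52.9 in control cells. The log2 ratio to control was 1.23 in the libraries labelled Id3-/-, 2.61 in Id2-/-Id3-/- CD4SP cells and 2.49 in the lymphomas, and lymphomas and Id2-/-Id3-/- CD4SP cells differed by 1.08 times. TFH cells, with a mean under 10, were 9.47-fold below control, a log2 ratio of -3.24 that was -2.10 with 10 counts added. Aqp11 was the only one of the 8 genes past 2-fold in the libraries labelled Id3-/-.

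Endou encodes an endoribonuclease that cuts at uridines and lies at chr15:97711015-97731339 on the minus strand. Its means were 13.4 in the libraries labelled Id3-/-, 163.8 in Id2-/-Id3-/- CD4SP cells, 14.2 in TFH cells, 1212.1 in the lymphomas and 10.7 in control cells. The groups with Id2 expressed were all close to 10. Id2-/-Id3-/- CD4SP cells were 14.1 times control, at the 98.5 percentile of all genes. The lymphomas were 103 times control, at the 99.7 percentile. With a control mean so close to the filter, the size of these ratios depends on the count added. On the log2 scale they were 3.81 and 6.69 in these groups in turn, and 3.07 and 5.88 with 10 counts added. Lymphomas exceeded Id2-/-Id3-/- CD4SP cells by 7.36 times. In level per kilobase of exon Endou averaged 442 in the lymphomas, above Cd8a at 382 and Dntt at 210 and below Cd4 at 1020.

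**Figure D3:**
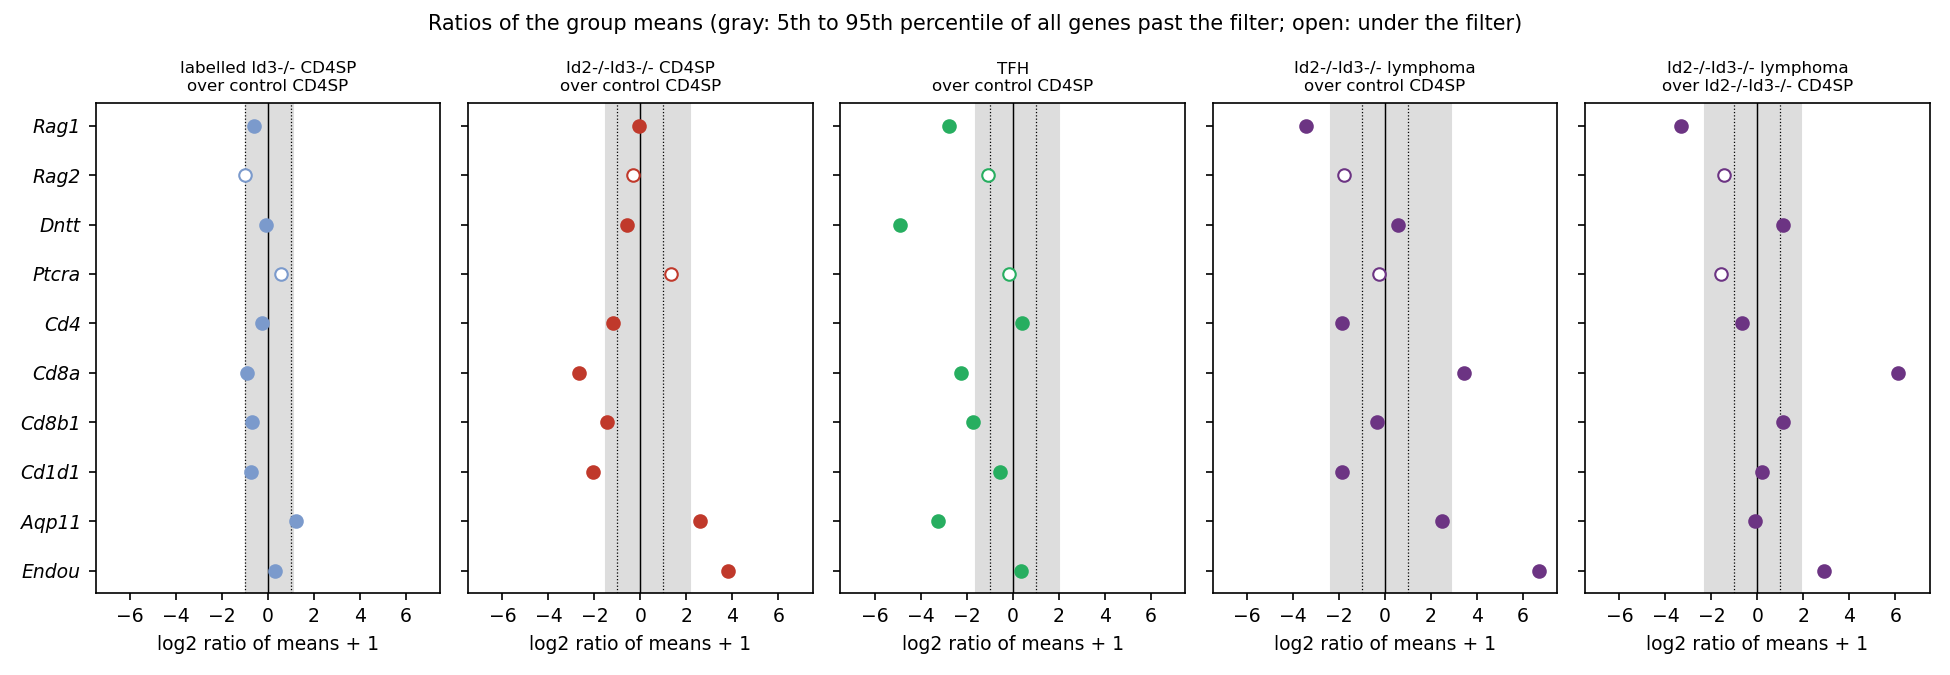
Log2 ratios of the group means of the 10 genes, with 1 count added, in 5 comparisons, 1 panel each with the same horizontal axis. The gray band spans the 5th to 95th percentile of all 15536 genes past the filter, dotted lines mark 2-fold, and open points are Rag2 and Ptcra, which were under the filter. Aqp11 and Endou lie right of the 2-fold line in both comparisons of Id2-/-Id3-/- cells with control, while Cd1d1 and Cd4 lie left of it.

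Other genes known for the double-positive stage, a list of 12, were read beside the 10. Against control 2 were lower and none higher in the libraries labelled Id3-/-, 2 higher and 5 lower in Id2-/-Id3-/- CD4SP cells, 1 higher and 3 lower in TFH cells, and 3 higher and 3 lower in the lymphomas. Shares over all genes in these groups in turn were 5.57%, 14.1%, 11.8% and 18.2% higher, and 4.43%, 10.1%, 9.8% and 17.2% lower. Arpp21, an RNA-binding protein gene of immature thymocytes, averaged 252.1 in Id2-/-Id3-/- CD4SP cells and 673.1 in the lymphomas against 46.7 in control cells. Cd24a, a surface protein lost as thymocytes mature, averaged 77.3 in Id2-/-Id3-/- CD4SP cells and 420.5 in the lymphomas against 680.3 in control cells. Ccr9, the receptor for the thymic chemokine CCL25, averaged 112.5 in TFH cells against 5827 in control cells. Relative to Id2-/-Id3-/- CD4SP cells the lymphomas had 5 of the 12 higher and none lower, beside 11.1% and 14.4% of all genes.

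**Figure D4:**
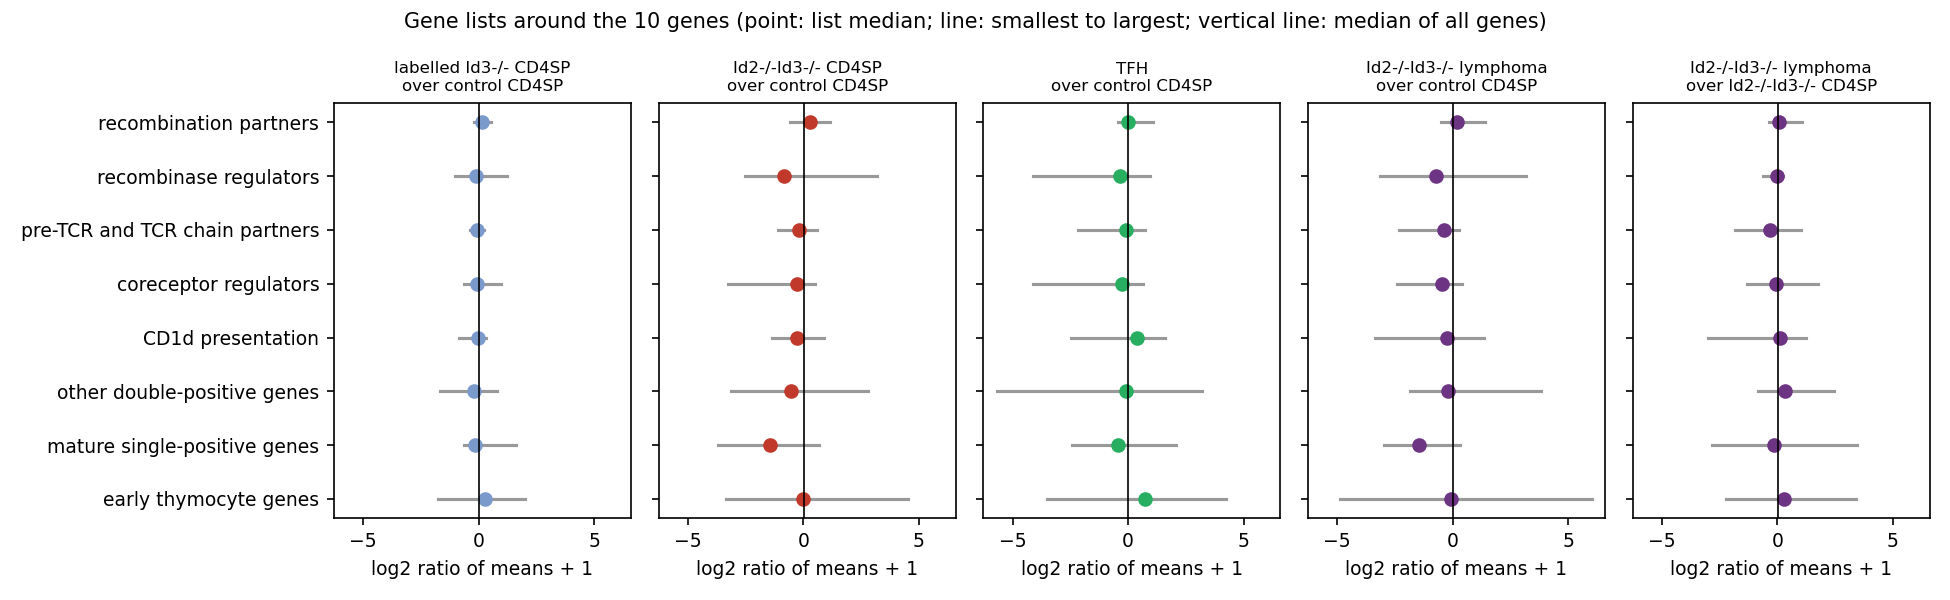
Gene lists around the 10 genes, as log2 ratios of the group means with 1 count added, in 5 comparisons with a common horizontal axis. Points are list medians, gray lines run from the smallest to the largest member, and the vertical line is the median of all genes. Mature single-positive genes have the lowest medians in both comparisons of Id2-/-Id3-/- cells with control (-1.43 and -1.46).

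Genes whose 4 log2 ratios to control were most like those of a member were found among 10647 genes with a mean of at least 100 in some group, by the straight-line (Euclidean) distance over these 4 values. The members differed widely in how many genes resembled them. Large ratios are rarer over all genes, so these counts partly reflect the size of a member's ratios. Cd4 had 190 genes within a distance of 1, Cd1d1 had 67 and Cd8b1 had 57, whereas Endou had 4, Dntt 3, Rag1 and Aqp11 1 each and Cd8a none. Nearest to Cd8a was Ppp1r1b at 1.63. Nearest to Dntt were Cnn3 at 0.66, Jup at 0.70 and Itm2a at 0.93, and nearest to Endou were Sulf2 at 0.94, F730016J06Rik at 0.95 and Col1a1 at 0.95. Cdh3, at 0.94, was the gene nearest to Aqp11, and Oasl2, at 0.76, the one nearest to Rag1. Every mean of Rag1 was under 100, and the size of its ratios depends on the count added. For Cd1d1 the nearest were 4930523C07Rik, Rasa3 and Actn1, at distances between 0.24 and 0.43. Cd8a and Cd8b1, which both reached a mean of 100, were not within a distance of 1 of each other.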

How the data were processed

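RNA was sequenced from 20 libraries in 5 groups, placed by their labels. Strand-specific reads were mapped by the authors to mm10 (OSA, Array Studio), transcript abundance was estimated by RSEM, and the authors normalized these counts with DESeq. Tool versions were not stated. The authors deposited 1 signal per gene and group, the average of these normalized counts, and 0 columns of single libraries. Depth is therefore unknown, and no interval or test was computed. It also has 12 columns of the authors' own comparisons (fold changes, p-values and false discovery rates), which were not used. The methods state that genes under 10 in all samples were removed, but the table still has such rows.

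Genes were kept with a mean of at least 10 in 1 or more groups. Ratios were log2 of means with 1 added, and past 2-fold was called higher or lower. Exonic lengths and positions are those of GENCODE M21, for 15289 of the kept genes. The calculation was tested on simulated data. Alternatives were other pseudocounts, filters, fold thresholds and scalings. The members and gene lists were chosen with earlier results of these data known. Named genes are the 10 members, the paralogues or neighbours Cd1d2 and Lag3, Id2 and Id3, the 3 nearest genes of a member, and from each list its largest and smallest ratios. Some genes that this rule gives are left out. Other genes of the lists were picked as examples after their values were seen. Python 3.11.15, numpy 2.4.6, pandas 2.3.3 and matplotlib 3.10.9 were used.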

Additional observations from a re-analysis of the deposited data

How the results depend on the processing

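No log2 ratio of the 10 genes changed direction under either rescaling of the means. A different count added to both means cannot change a direction, so only the size of a ratio was at stake there. Of 200 log2 ratios over these settings 185 stayed within 1.5 times of those given, and the other 15 moved. Of these, 13 moved with 10 added to the means and 2, both for Rag2, with 0.5 added. Rescaling the means to equal sums shifted the median of all genes by -0.20 in lymphomas against control and by -0.12 in lymphomas against Id2-/-Id3-/- CD4SP cells. It and a rescaling by median ratios left all 50 values of the 10 genes within 1.5 times each, but equal sums put Cd8b1 at 1.00 on the log2 scale in lymphomas against Id2-/-Id3-/- CD4SP cells, just under 2-fold, so that 3 of the 8 genes were higher there. The counts depended on the threshold. At 4-fold, 0 of the 8 genes were higher in the libraries labelled Id3-/- (1 at 2-fold), 2 were lower in Id2-/-Id3-/- CD4SP cells (4 at 2-fold), 1 was lower in the lymphomas (3 at 2-fold), each against control, and 2 were higher in lymphomas than in Id2-/-Id3-/- CD4SP cells (4 at 2-fold). At 1.5-fold, 4 were lower in the libraries labelled Id3-/- (0 at 2-fold), and 2 were lower in lymphomas than in Id2-/-Id3-/- CD4SP cells (1 at 2-fold). In that last comparison 0 were lower with a filter at 50 and 3 with no filter, since Rag1 is under that filter and Rag2 and Ptcra come in without one. No paired analysis was possible because the table holds 1 mean per group. For the same reason no library could be left out, so a mean set by a single library cannot be told apart from one shared by all.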

Other observations

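Genes at the stages on either side of the double-positive stage had values of their own. Of 12 genes of mature single-positive cells, 9 were lower and none higher by over 2-fold in Id2-/-Id3-/- CD4SP cells against control (list median -1.43), and 7 were lower and none higher in the lymphomas (-1.46). Of all genes 10.1% and 17.2% were lower in these groups in turn, and 14.1% and 18.2% higher. Il7r, the receptor for the survival cytokine IL-7, averaged 310.6 in Id2-/-Id3-/- CD4SP cells and 3392 in the lymphomas against 3997 in control cells. Cre was driven from this same locus in the Id2-/-Id3-/- CD4SP cells, and the Cre line of the lymphomas is not given. The part of the Cre allele in the Il7r means was not tested. Ccr7, a chemokine receptor of mature thymocytes, averaged 2152 in Id2-/-Id3-/- CD4SP cells and 1108 in the lymphomas against 8653 in control cells. The libraries labelled Id3-/- had 3 of the 12 higher and none lower, beside 5.57% and 4.43% of all genes.

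Of 12 genes of early thymocytes 9 passed the filter, and these went both ways. Hhex, a homeobox factor of progenitors, averaged 387.4 in Id2-/-Id3-/- CD4SP cells and 473.8 in the lymphomas against 15.8 in control cells. Mef2c, another factor of early progenitors, averaged 110.5 in Id2-/-Id3-/- CD4SP cells and 1181 in the lymphomas against 17.3 in control cells. Kit, the stem cell factor receptor, averaged 7.26 in Id2-/-Id3-/- CD4SP cells and 1.86 in the lymphomas against 82.2 in control cells.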
